A study of Mus musculus with 17 samples.

Results

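The homeostatic microglia identity genes P2ry12, P2ry13, Tmem119, Cx3cr1, Siglech, Sall1, Gpr34, Selplg and Fcrls were followed through the brain microvessels of WT and amyloid-model mice. The set was a list of 9 symbols, matched to the Ensembl IDs of the deposited count table. All 9 were found among its 42687 genes, with 1 row each, and all 9 were among the 18753 genes that passed the filter on low counts. RNA was sequenced in 17 libraries of microvessels from the cortex of mice that were 10 to 11 months old. The model genotype is APP in the labels and APP/PS1 in the series' design text. Every mouse, WT or APP/PS1, was given a peptide at 10 mg/kg into the peritoneum, once per 2 days over 2 weeks. Mice of the test groups had gp91-ds-tat, which blocks NOX2, the phagocyte NADPH oxidase, and mice of the control groups had sgp91-ds-tat. The treatment labels read NOX2 and SC, and these were taken as inhibitor and control peptide. The groups were WT with control peptide (5 libraries), WT with inhibitor (5), APP/PS1 with control peptide (2) and APP/PS1 with inhibitor (5). The extraction protocol also speaks of surgery and of ipsilateral cortices, without naming an operation or a group. The promoter of the transgenes, the sex of the mice and any pooling are not given in the sources used here. Replicates are numbered by sample order only, and no label says that they are separate mice, so p-values measure the spread between libraries, which may be technical.

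Microglia are the resident macrophages of the brain parenchyma. In the healthy adult brain they survey the tissue with fine processes and carry a set of surface receptors and a transcription factor that other macrophages mostly lack. That homeostatic program is known to depend on TGF-beta and on CSF1R signalling, and single microglia that touch amyloid plaques are known to lower it while raising lysosomal and lipid-handling genes. Its purinergic receptors sense nucleotides released by injured cells, and P2RY12 is known to guide microglial processes to vessel walls.

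The labelled cells of the preparation were endothelium, pericytes and astrocyte endfeet, and microglia were not among them. The sum over 6 endothelial markers was 2170 to 4202 CPM (counts relative to the TMM-normalized library size), so the defining vessel markers were present in every library. Sums over 6 markers each were 2440 to 4122 CPM for neurons, 3002 to 5178 CPM for astrocytes and 1441 to 2527 CPM for oligodendrocytes. RNA of brain cells outside the vessels was therefore present too. The 9 homeostatic genes together ran from 116 to 193 CPM in WT and reached 180 to 273 CPM in APP/PS1, or 0.0118% to 0.0259% of a library's counts. Single genes had 38 to 834 counts in a library. Total counts were 7316503 to 17862965. In such bulk samples, fewer cells of a type and less RNA per cell cannot be told apart.

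Each of the 9 genes is a protein-coding gene of 1 locus in GRCm38 (GENCODE vM21). P2ry12 (ENSMUSG00000036353, chr3:59216272-59262871, minus strand) and P2ry13 (ENSMUSG00000036362, chr3:59207892-59210882, minus strand) lie 5390 bases apart, both within Med12l on the opposite strand. P2ry12 shares 9 exon bases with Med12l. Tmem119 (ENSMUSG00000054675, chr5:113793729-113800516) and Selplg (ENSMUSG00000048163, chr5:113818536-113832644) are adjacent coding genes on the minus strand, 18020 bases apart. Cx3cr1 (ENSMUSG00000052336) spans chr9:119901616-120069879 on the minus strand, and 78 of its exon bases overlap the antisense gene Gm33858. Siglech (ENSMUSG00000051504) is at chr7:55768178-55778925 on the plus strand, Sall1 (ENSMUSG00000031665) at chr8:89027235-89044162 on the minus strand and Fcrls (ENSMUSG00000015852) at chr3:87250758-87263738 on the minus strand. Gpr34 (ENSMUSG00000040229, chrX:13632089-13640858, plus strand) lies within Cask on the opposite strand and shares no exon base with it. Whether the counting used the strand is not stated, so reads from the shared bases cannot be assigned with certainty. Of the 16 tested genes that overlap or neighbour the 9, 0 passed the genotype test described further on by edgeR and 0 had an unadjusted p under 0.05, with Med12l at a log2 change of -0.09 ± 0.07 (SE) and Cask at -0.06 ± 0.06.

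The promoters of the 4 genes that passed the genotype test are shown because these genes differed together and because microglial enhancers and promoters are known for binding PU.1, the product of Spi1. Each is 300 bases from RefSeq (GRCm38.p6), 250 before the start of the transcript and 50 after, read 5′ to 3′ on the gene's strand, with the PU.1 core GAGGAA or its reverse complement TTCCTC in capitals. The intervals are chr9:120068247-120068546 for Cx3cr1, chr3:87263475-87263774 for Fcrls, chr3:59262936-59263235 for P2ry12, all on the minus strand, and chr7:55767934-55768233 on the plus strand for Siglech.
Cx3cr1: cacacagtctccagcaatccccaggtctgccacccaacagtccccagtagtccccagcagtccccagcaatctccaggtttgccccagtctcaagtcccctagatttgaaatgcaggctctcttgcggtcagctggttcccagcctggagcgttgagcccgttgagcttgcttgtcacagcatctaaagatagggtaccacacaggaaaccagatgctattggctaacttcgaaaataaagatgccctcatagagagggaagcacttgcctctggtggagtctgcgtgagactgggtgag
Fcrls: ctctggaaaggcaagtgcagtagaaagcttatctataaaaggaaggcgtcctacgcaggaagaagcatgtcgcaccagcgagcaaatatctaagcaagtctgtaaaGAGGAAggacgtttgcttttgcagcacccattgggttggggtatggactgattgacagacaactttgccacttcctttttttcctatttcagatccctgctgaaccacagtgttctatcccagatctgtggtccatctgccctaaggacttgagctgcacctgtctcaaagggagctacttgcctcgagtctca
P2ry12: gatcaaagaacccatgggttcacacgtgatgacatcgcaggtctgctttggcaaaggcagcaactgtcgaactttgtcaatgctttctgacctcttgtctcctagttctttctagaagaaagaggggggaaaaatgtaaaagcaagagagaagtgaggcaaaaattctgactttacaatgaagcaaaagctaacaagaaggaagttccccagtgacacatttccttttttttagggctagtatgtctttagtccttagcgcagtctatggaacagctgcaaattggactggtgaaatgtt
Siglech: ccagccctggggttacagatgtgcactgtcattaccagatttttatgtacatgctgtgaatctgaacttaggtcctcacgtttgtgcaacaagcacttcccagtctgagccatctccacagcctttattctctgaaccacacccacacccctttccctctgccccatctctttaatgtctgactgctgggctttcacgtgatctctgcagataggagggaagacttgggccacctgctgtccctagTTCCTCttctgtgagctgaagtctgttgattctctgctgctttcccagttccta
Siglech held the motif 4 bases before its start on the reverse strand, and Fcrls held it 144 bases before its start. The P2ry13 promoter held it 48 bases before its start, while those of P2ry12, Cx3cr1 and Sall1 did not hold these letters in this window. The motif was thus in 3 of the 6 member genes found in the RefSeq promoter table, against 31.3% of all 27025 genes there and 28.3% of all 32851 promoters. The SMAD motif CAGAC (either strand), the letters that mediators of TGF-beta signalling are known to read, was in 5 of the 6, against 53.2% of all genes. Tmem119, Gpr34 and Selplg were not matched in that table. A match of letters describes the sequence and shows no binding.

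Part of the homeostatic microglia set was higher in APP/PS1 microvessels and none of it was lower. Over both peptides, with a model of genotype plus peptide, Siglech, Cx3cr1, Fcrls and P2ry12 rose, and the other 5 had positive estimates that did not pass the test. This made 4 of 9 genes higher and 0 lower by edgeR's quasi-likelihood test at a Benjamini-Hochberg adjusted p under 0.05, where 0.587% of all 18753 tested genes were called, 0.56% higher and 0.0267% lower. Their log2 changes ran from 0.29 for Sall1 to 1.02 for Fcrls, with a median of 0.72, whereas the median over all tested genes was 0.00. At an unadjusted p under 0.05, 9 of 9 were found, along with 1197 of the 18753 genes. In each of the 9 genes, the mean CPM of both APP/PS1 groups was above that of both WT groups. The share of all tested genes with this order is not given here.

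**Figure D1:**
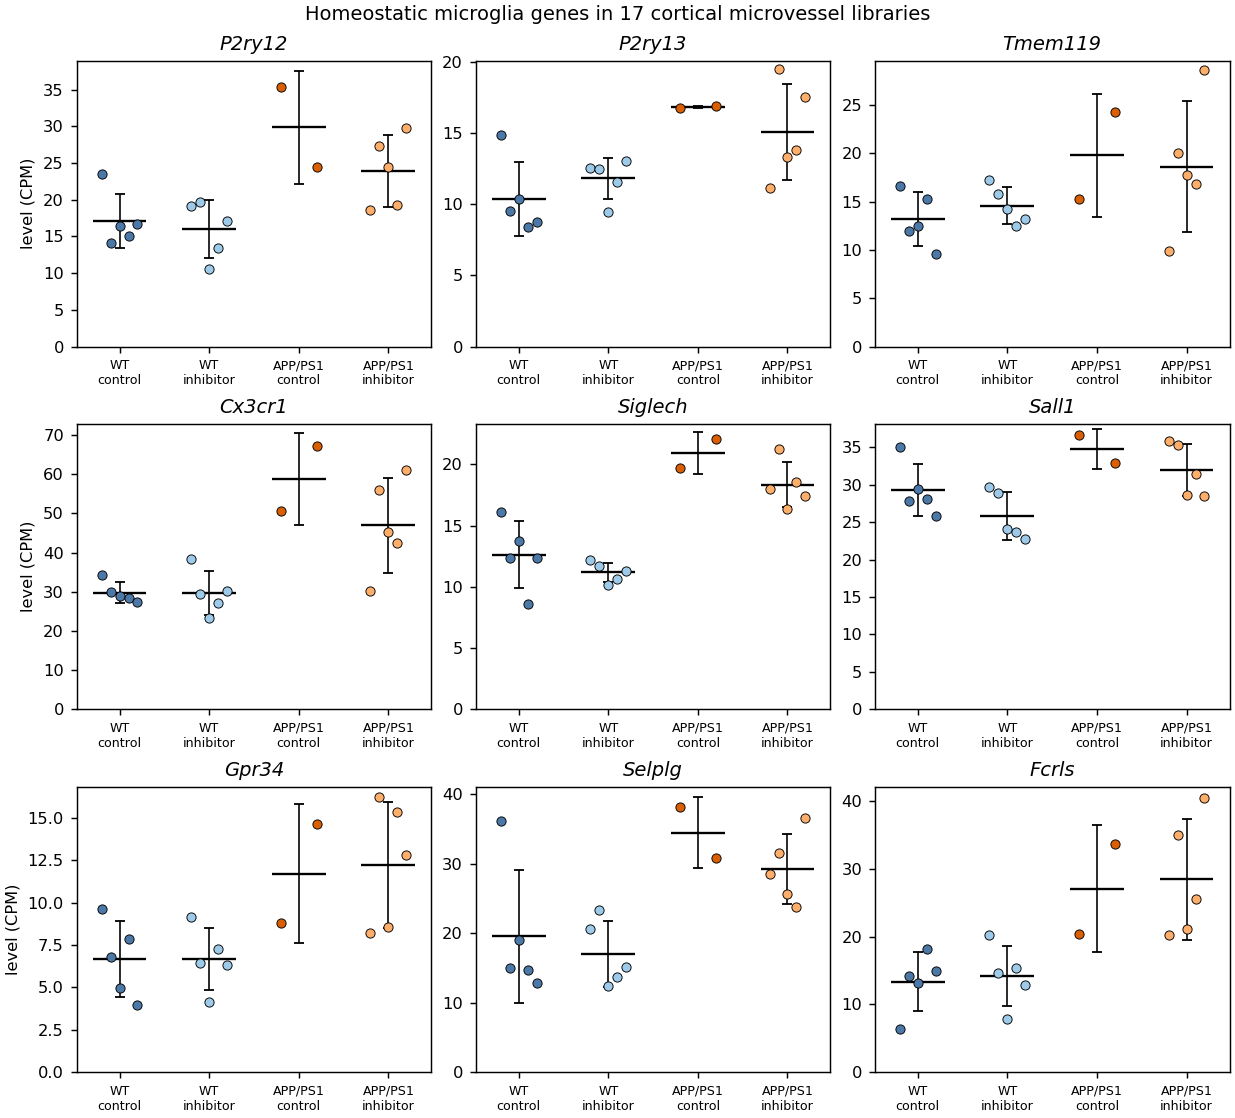
Expression of the 9 homeostatic microglia genes in CPM (y axis of each panel, starting at 0) in the 4 groups (x axis). Each point is a library, each horizontal line a group mean and each error bar the SD. Siglech and Fcrls show no overlap between the genotypes, while Tmem119 and Sall1 overlap widely.

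P2ry12 and P2ry13 encode Gi-coupled receptors for ADP, the first of which drives the movement of microglial processes toward released nucleotides. P2ry12 was at 23.5, 14.04, 16.5, 15.1 and 16.6 CPM in WT with control peptide and at 19.2, 19.6, 10.5, 13.4 and 17.2 CPM in WT with inhibitor. In APP/PS1 it was at 35.3 and 24.4 CPM with control peptide and at 18.6, 27.4, 24.4, 19.3 and 29.8 CPM with inhibitor. The ranges overlapped, with 5 of 7 APP/PS1 libraries above every WT library, and APP/PS1 with inhibitor replicates 1 and 4 among the WT values. The mean rose from 16.6 ± 3.65 CPM (SD, n = 10) to 25.6 ± 5.87 CPM (SD, n = 7). The difference fitted by edgeR was 1.58-fold, log2 0.66 ± 0.14 (SE), with an adjusted p of 0.0365. P2ry12 passed in 5 of the 17 fits that each left out 1 library, with edgeR adjusted p-values from 0.0145 to 0.228. These were the fits without WT with control peptide replicate 1, WT with inhibitor replicate 1 or 2, or APP/PS1 with inhibitor replicate 1 or 4, and the highest p was without APP/PS1 with control peptide replicate 1. P2ry13 ran from 8.40 to 14.9 CPM in WT (median 11.0) and from 11.1 to 19.5 CPM in APP/PS1 (median 16.8). Its highest WT library was WT with control peptide replicate 1, and 4 of 7 APP/PS1 libraries lay above it. The log2 change of P2ry13 was 0.47 ± 0.13 (SE) and did not pass (edgeR adjusted p = 0.174).

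Cx3cr1 encodes the receptor of fractalkine, a chemokine that neurons and endothelium display or shed, and Gpr34 encodes a receptor for lysophosphatidylserine. Cx3cr1 was at 34.2, 29.96, 28.9, 28.4 and 27.3 CPM in WT with control peptide and at 38.4, 29.5, 23.2, 27.2 and 30.1 CPM in WT with inhibitor. In APP/PS1 it was at 50.6 and 67.1 CPM with control peptide and at 30.1, 56.0, 45.4, 42.6 and 61.1 CPM with inhibitor. All APP/PS1 libraries but 1, the inhibitor replicate 1, lay above every WT library. The mean rose from 29.7 ± 4.13 CPM (SD, n = 10) to 50.4 ± 12.4 CPM (SD, n = 7). The fitted difference was 1.72-fold, log2 0.78 ± 0.13 (SE), with an edgeR adjusted p of 0.00262, and it passed in 17 of 17 fits without 1 library. Gpr34 ran from 3.97 to 9.60 CPM in WT (median 6.61) and from 8.21 to 16.2 CPM in APP/PS1 (median 12.8). Its ranges overlapped, and 4 of 7 APP/PS1 libraries were above every WT library. The log2 change of Gpr34 was 0.85 ± 0.20 (SE; edgeR adjusted p = 0.0550) and missed the threshold, while DESeq2 gave an adjusted p of 0.00477. It passed in 5 of 17 fits without 1 library, which were those without replicate 1 of any of the groups and without APP/PS1 with inhibitor replicate 3.

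Siglech encodes a receptor of the Siglec lectin family that signals through the adaptor DAP12, the product of Tyrobp. Siglech was at 16.1, 12.4, 13.7, 8.57 and 12.3 CPM in WT with control peptide and at 12.2, 11.7, 10.1, 10.7 and 11.3 CPM in WT with inhibitor. In APP/PS1 it was at 19.7 and 22.1 CPM with control peptide and at 18.0, 21.3, 16.4, 18.6 and 17.5 CPM with inhibitor. No APP/PS1 library overlapped with WT, although the highest WT value (control peptide replicate 1) and the lowest APP/PS1 value (inhibitor replicate 3) were close. Its mean rose from 11.9 ± 2.05 CPM (SD, n = 10) to 19.1 ± 2.07 CPM (SD, n = 7). The fitted difference was 1.64-fold, log2 0.72 ± 0.10 (SE; edgeR adjusted p = 0.000676), the smallest p and the smallest SE relative to the change of the 9. It also passed in 17 of 17 fits without 1 library. Tyrobp itself rose by 1.22 ± 0.19 (log2, SE; edgeR adjusted p = 0.00161).

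Fcrls, a receptor-like gene of the Fc receptor family that mouse microglia are known for, had the largest estimate of the 9. It was at 6.31, 14.2, 13.2, 18.2 and 14.9 CPM in WT with control peptide and at 20.2, 14.7, 7.81, 15.3 and 12.9 CPM in WT with inhibitor. In APP/PS1 it was at 20.4 and 33.8 CPM with control peptide and at 20.2, 35.0, 21.1, 25.6 and 40.5 CPM with inhibitor. The ranges did not overlap but all but touched, since the highest WT library had 20.196 CPM and the lowest APP/PS1 library 20.217 CPM, both of them replicate 1 of an inhibitor group. Its mean rose from 13.8 ± 4.19 CPM (SD, n = 10) to 28.1 ± 8.26 CPM (SD, n = 7), and the fitted difference was 2.02-fold, log2 1.02 ± 0.21 (SE), with an edgeR adjusted p of 0.0193. Fcrls passed in 13 of the 17 fits without 1 library and missed without WT with inhibitor replicate 5 (edgeR adjusted p = 0.0544), APP/PS1 with control peptide replicate 2 (0.133), or APP/PS1 with inhibitor replicate 2 (0.0538) or 5 (0.0515).

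Selplg encodes PSGL-1, the ligand of P-selectin, and Tmem119 a membrane protein used as a marker that separates microglia from blood-derived macrophages. Selplg ran from 12.4 to 36.2 CPM in WT (median 15.1) and from 23.8 to 38.2 CPM in APP/PS1 (median 30.9). One WT library, control peptide replicate 1 at 36.2 CPM, lay inside the APP/PS1 range, and the other 9 WT libraries were at 23.3 CPM or less, below all APP/PS1 libraries. The log2 change of Selplg was 0.78 ± 0.18 (SE; edgeR adjusted p = 0.0618), and without that library it was 0.91 (edgeR adjusted p = 0.00129). Without WT with inhibitor replicate 2, the next highest WT library, it passed as well (edgeR adjusted p = 0.0347). Tmem119 ran from 9.62 to 17.2 CPM in WT (median 13.7) and from 9.86 to 28.6 CPM in APP/PS1 (median 17.8). Only 1 WT library lay below all APP/PS1 libraries, whose lowest was inhibitor replicate 1, while 4 of 7 APP/PS1 libraries were above every WT library. The log2 change of Tmem119 was 0.43 ± 0.17 (SE), with the largest p of the 9 (edgeR adjusted p = 0.598).

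Sall1, the transcription factor that holds microglial identity in place, had the smallest estimate. It ran from 22.8 to 35.1 CPM in WT (median 28.0) and from 28.5 to 36.6 CPM in APP/PS1 (median 32.9). The ranges overlapped over most of their length, and 3 of 7 APP/PS1 libraries lay above every WT library. The log2 change of Sall1 was 0.29 ± 0.08 (SE), a fitted 1.22-fold difference that did not pass (edgeR adjusted p = 0.233). Across the 9 genes, 2 separated the genotypes completely with APP/PS1 higher, against 0.267% of all tested genes, and without WT with control peptide replicate 1 this became 3 of 9, against 0.357%.

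**Figure D2:**
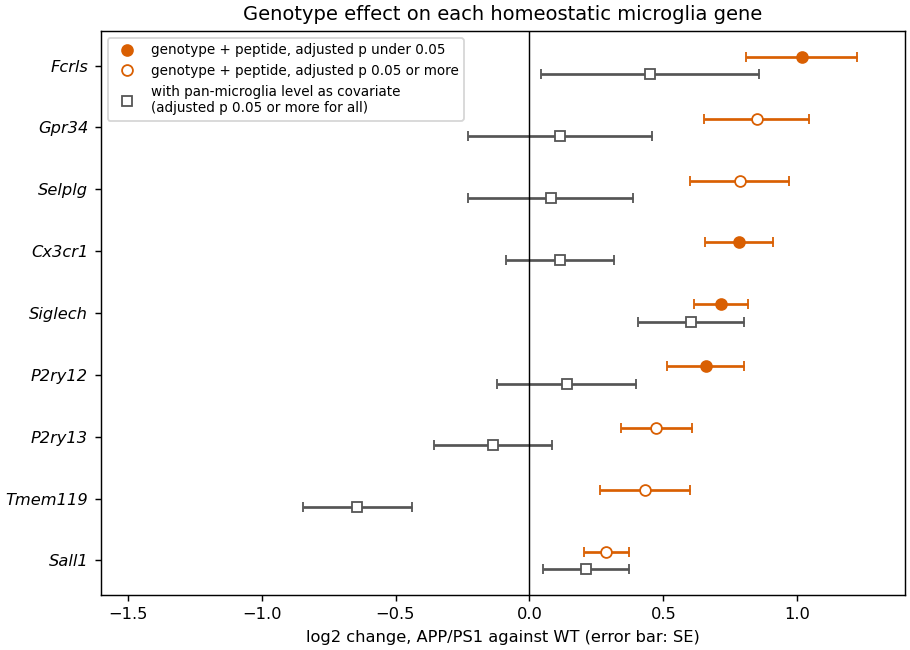
Log2 change of each of the 9 genes in APP/PS1 against WT (x axis, error bars SE), ordered by size. Orange circles are the model of genotype plus peptide, filled at an adjusted p under 0.05, and grey squares add the pan-microglia level as a covariate, where none of the 9 passed. Siglech is at 0.72 in the first model and at 0.60 in the second, and Tmem119 moves to -0.64. The pan-microglia level separates the genotypes completely, so the second model rests on the spread within each genotype.

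Levels of different genes were compared per length of exon. Over all 17 libraries, Cx3cr1 (8.49 CPM per kb of exon), Fcrls (8.42) and P2ry12 (7.97) had the highest mean levels. These means were closer to each other than the SD between libraries, called the spread here. Differences between genes within the same library were not tested. Tmem119 was at 6.90 CPM per kb, Sall1 at 5.64, Selplg at 5.48, P2ry13 at 5.12, Siglech at 4.39 and Gpr34 at 4.25, so that the lectin and the lysophosphatidylserine receptor were at the bottom. In WT libraries alone the highest means were those of Cx3cr1 (6.60 ± 0.916 CPM per kb, SD), P2ry12 (6.50 ± 1.43), Tmem119 (5.999 ± 1.03) and Fcrls (5.90 ± 1.80), which lay within their spread. In APP/PS1 libraries Fcrls led with 12.03 ± 3.54 CPM per kb, ahead of Cx3cr1 at 11.2 ± 2.75 and P2ry12 at 10.1 ± 2.31, again within the spread.

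With control peptide alone, 0 of 9 genes passed the genotype test, where 0.0533% of all tested genes were called in that comparison, all of them higher. This comparison rests on 2 APP/PS1 libraries. The estimates ran from 0.25 for Sall1 to 1.03 for Fcrls with a median of 0.79, and 7 of 9 had an unadjusted p under 0.05. Single libraries moved some of them: Fcrls was at 0.63 without APP/PS1 with control peptide replicate 2, and without 1 library Tmem119 ranged from 0.20 to 0.87 and Gpr34 from 0.38 to 1.12. Cx3cr1 came closest, at log2 0.98 ± 0.20 (SE) and an edgeR adjusted p of 0.110, followed by Siglech at 0.72 ± 0.17 (edgeR adjusted p = 0.180). DESeq2 called both, with adjusted p-values of 0.0114 for Cx3cr1 and 0.0448 for Siglech. Without APP/PS1 with inhibitor replicate 1, edgeR also called Cx3cr1 (adjusted p = 0.0325).

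With inhibitor, 1 of 9 genes rose, where 0.181% of all tested genes were called, 0.176% higher and 0.00533% lower. It was Siglech, at log2 0.71 ± 0.13 (SE) with an edgeR adjusted p of 0.0283 and with no overlap between 10.1 to 12.2 CPM in WT and 16.4 to 21.3 CPM in APP/PS1. Leaving out 1 library ended this call in 9 of 17 fits, namely without any 1 of the 5 WT libraries given the inhibitor or without APP/PS1 with inhibitor replicate 1, 2, 4 or 5, with edgeR adjusted p-values up to 0.131. The median log2 change of the 9 genes was 0.66, with values from 0.31 for Sall1 to 1.01 for Fcrls, and 7 of 9 had an unadjusted p under 0.05. Cx3cr1 was at 0.66 ± 0.16 (SE; edgeR adjusted p = 0.208), and by DESeq2 its adjusted p was 0.0348.

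General microglia genes rose beside the homeostatic set. Of 8 pan-microglia genes, among them Csf1r, Aif1, C1qa, C1qb, C1qc, Laptm5 and Ctss, 7 passed in the comparison over both peptides, with a median log2 change of 0.72, and Aif1, at 0.67 ± 0.21 (SE), did not. The lysosomal protease gene Ctss rose by 1.14 ± 0.13 and Csf1r, the receptor that keeps microglia alive, by 0.63 ± 0.12 (log2, SE; edgeR adjusted p = 3.59e-05 and 0.00933). The mean log2 CPM of these 8 genes, here called the pan-microglia level, was 4.27 to 4.78 in WT and 4.89 to 5.65 in APP/PS1, without overlap. Since that level separates the genotypes completely, a fit with both rests on the spread within each genotype.

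In that fit, 0 of 9 homeostatic genes passed the genotype test. Siglech had the largest positive change, at 0.60 (log2; edgeR adjusted p = 0.0913), followed by Fcrls at 0.45 (0.557) and Sall1 at 0.21. P2ry12 was at 0.14, Cx3cr1 and Gpr34 each at 0.11 and Selplg at 0.08. Tmem119 was at -0.64 (edgeR adjusted p = 0.0819) and P2ry13 at -0.14, so their signs turned. Over all tested genes the same fit called 612 by genotype, against 110 without the covariate. The log2 CPM minus the pan-microglia level was also taken in each library. Its means in WT and APP/PS1 were 0.28 and -0.22 for Sall1 and -0.93 and -0.996 for Siglech. Those of Tmem119 (-0.71, -1.07), P2ry13 (-1.03, -1.30), P2ry12 (-0.47, -0.60) and Cx3cr1 (0.38, 0.36) were lower in APP/PS1 too. Those of Gpr34 (-1.79, -1.69), Selplg (-0.38, -0.32) and Fcrls (-0.78, -0.49) were higher. In the fit with the covariate Sall1, Siglech, P2ry12 and Cx3cr1 had positive changes, so for them the direction was the opposite there. For Siglech, P2ry12, Cx3cr1, Gpr34 and Selplg the means of the genotypes differed by less than the SD of either. These differences were not tested.

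Each gene's slope on the pan-microglia level was tested within genotype and peptide. The slope, in log2 units of the gene per log2 unit of the level, passed for 3 of 9, where 11% of all tested genes had a called slope, 7.38% positive and 3.67% negative. That background moved with single libraries: the 2072 called slopes became 698 without APP/PS1 with inhibitor replicate 5 and 1384 without WT with control peptide replicate 5, and 2633 without WT with control peptide replicate 1. Tmem119 had a slope of 1.37 ± 0.23 (SE; edgeR adjusted p = 0.00195), Cx3cr1 of 0.84 ± 0.23 (0.0238) and P2ry13 of 0.79 ± 0.25 (0.0476). The call of P2ry13 held in 4 of the 17 fits without 1 library, those without WT with control peptide replicate 4, WT with inhibitor replicate 3 or 5, or APP/PS1 with control peptide replicate 1 (edgeR adjusted p from 0.0206 to 0.157 over the 17). Gpr34 (0.96), Selplg (0.95), Fcrls (0.70) and P2ry12 (0.68) had positive slopes that did not pass. Fcrls passed without WT with control peptide replicate 1 (slope 1.05, edgeR adjusted p = 0.0430), and Gpr34 without APP/PS1 with inhibitor replicate 4 (1.26, 0.0455). Siglech, at 0.15 ± 0.22 (edgeR adjusted p = 0.691), and Sall1, at 0.10 ± 0.19 (0.747), were the flattest. The difference between slopes was not tested. Without APP/PS1 with inhibitor replicate 1 or replicate 5 only the slope of Tmem119 passed. With all 17 libraries the slope also passed for 5 of 6 endothelial, 4 of 6 pericyte, 3 of 6 astrocyte and 2 of 8 perivascular macrophage genes. It passed for 0 of 6 neuron, 0 of 6 oligodendrocyte and 0 of 4 smooth muscle genes. The slope is therefore not a property of microglia genes alone, and a fit with the level as covariate does not adjust for microglial RNA alone.

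**Figure D3:**
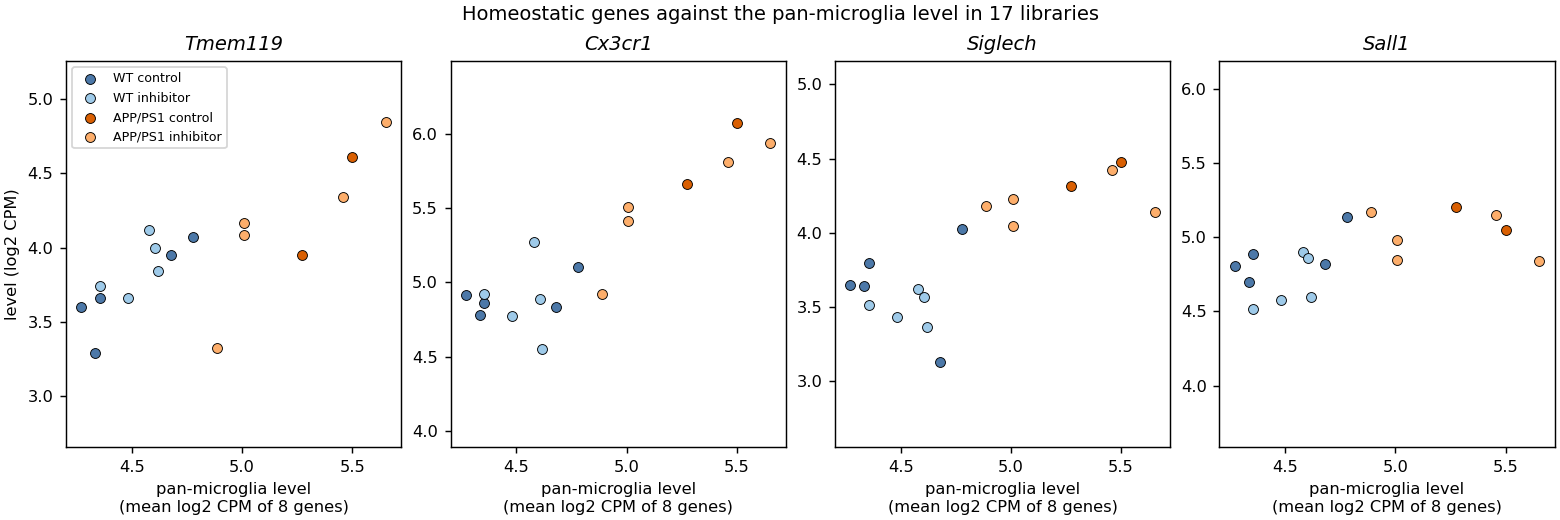
Log2 CPM of Tmem119, Cx3cr1, Siglech and Sall1 (y axes, spans of equal height) against the pan-microglia level (x axis, mean log2 CPM of 8 other genes) in the 17 libraries, coloured by group. Tmem119 climbs along the level within both genotypes, and the points of Siglech form a lower WT and an upper APP/PS1 cloud with little slope inside each.

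Particular libraries stood at the ends of the ranges. WT with control peptide replicate 1, the most deeply sequenced library, was the highest WT library for 6 of 9 genes and the lowest for Fcrls. APP/PS1 with inhibitor replicate 1 was the lowest APP/PS1 library for 6 of 9 genes and had the lowest pan-microglia level of that genotype, 4.89, together with the lowest share of counts from a pair of ribosomal RNA-linked genes, 4.76%. Their part in the results was not tested beyond the fits without each library. As a description over the 17 libraries, which share genotype and library quality, Cx3cr1 correlated best with the mean standardized log2 CPM of the 9 genes (Pearson r = 0.96) and Fcrls least (r = 0.72). With group means removed, P2ry13 followed it most closely (r = 0.91) and Fcrls least (r = 0.27). Each of the 9 is itself part of that mean, which raises its r, so these values cannot be set beside those of outside genes. Among genes outside the set, the 10 most like that mean included Cd53, App, Laptm5, Ctss, Apbb1ip, Mpeg1, C1qa, Prnp and Vsir, with r from 0.89 to 0.92 and, with group means removed, from 0.56 to 0.72. App is a gene that the model carries as a transgene.

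No effect of the inhibitor peptide on the set was detectable in either genotype. In WT, 0 of 9 genes passed, and in APP/PS1 0 of 9, where 0% of all tested genes were called in each comparison. At an unadjusted p under 0.05 by edgeR, 0 of 9 were found in each genotype, beside 252 of the 18753 genes in WT and 338 in APP/PS1. With so few over all genes, 0 of 9 does not set the members apart. DESeq2 called 0 of 9 in both. In WT the log2 changes ran from -0.21 ± 0.24 (SE) for Selplg to 0.18 ± 0.17 for P2ry13, with a median of -0.02. In APP/PS1 they ran from -0.32 ± 0.24 for P2ry12 to 0.08 ± 0.35 for Fcrls, with a median of -0.16, and the mean with inhibitor was below that with control peptide for 7 of 9 genes. The 95% interval of the P2ry12 change in APP/PS1, from its SE, was -0.79 to 0.14, and that of Cx3cr1, at -0.32 ± 0.21, was -0.73 to 0.09. Changes within these intervals can therefore not be excluded for either gene, and the comparison rests on 2 control libraries.

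The response to the inhibitor was also compared between genotypes. The interaction, which is the log2 change by inhibitor in APP/PS1 minus that in WT, passed for 0 of 9 genes, where 0% of all tested genes were called. At an unadjusted p under 0.05 it gave 0 of 9, beside 158 of the 18753 genes. Estimates ran from -0.34 ± 0.27 (SE) for P2ry13 to 0.09 ± 0.42 for Gpr34, with a median of -0.04. Their intervals were wide, -0.87 to 0.20 for P2ry13 and -0.73 to 0.92 for Gpr34, so a difference between genotypes was not detectable here.

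**Figure D4:**
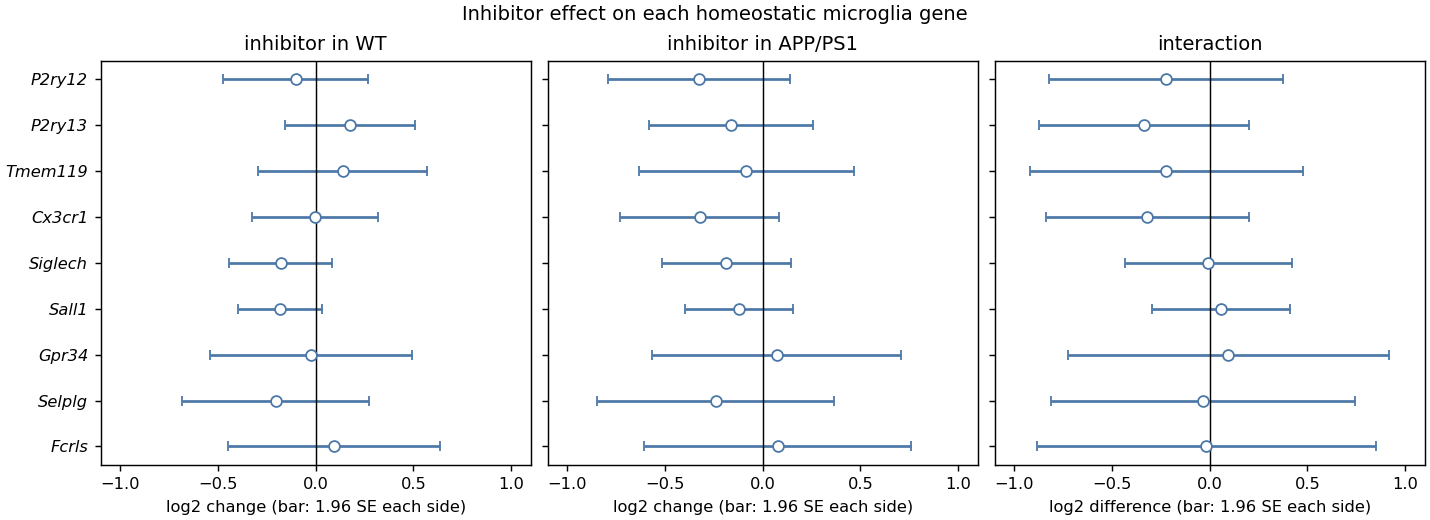
Log2 change by the inhibitor in WT (left) and in APP/PS1 (middle) and the interaction (right) for each of the 9 genes, with bars for the 95% interval from the SE. All intervals include 0.

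Ligands and partners of the 9 proteins mostly did not pass the test. Of 18 listed genes, 17 were tested and 1 rose over both peptides, the adaptor gene Tyrobp described with Siglech, with a median log2 change of 0.02. The fractalkine gene Cx3cl1, which encodes the ligand of CX3CR1, was at 0.07 ± 0.15 (log2, SE; edgeR adjusted p = 0.996). Entpd1, which encodes the ectonucleotidase that degrades ATP and ADP, was at 0.16 ± 0.13 (edgeR adjusted p = 0.945). Tgfb1 and Il34, which encode ligands that the homeostatic program needs, were at 0.26 ± 0.17 and -0.09 ± 0.12, and neither passed. Sele and Selp, which encode E-selectin and P-selectin, ligands of PSGL-1, were at -3.59 ± 1.11 and -1.67 ± 0.91 (log2, SE; edgeR adjusted p = 0.303 and 0.831). Both had their highest value in WT with inhibitor, at 27.7 CPM for Sele and 10.8 CPM for Selp, where the medians of that group were 0.233 and 0.187 CPM.

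A wider list of homeostatic microglia genes and their regulators was counted in the same comparison. Of 25 genes, 7 rose and 0 fell, with a median log2 change of 0.39. The transcription factor genes Runx1 (0.95 ± 0.13, SE) and Irf8 (0.96 ± 0.14), the lectin gene Cd33 (0.50 ± 0.07) and the checkpoint receptor gene Lag3 (1.33 ± 0.20) were among those with the smallest adjusted p-values, from 0.000511 to 0.00132 by edgeR. Over the 25 genes, 21 estimates were above 0 and 4 were below. The 4 were Ltc4s (-0.13 ± 0.36, SE), Crybb1 (-0.13 ± 0.30), Adgrg1 (-0.03 ± 0.15) and Mef2c (-0.01 ± 0.08). These 4, Sparc (0.11 ± 0.13) and Bin1 (0.02 ± 0.07) did not pass. They are named outside the rule for named genes and were chosen after their values were seen.

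Genes known from plaque-associated microglia rose in part as well. Of 22 genes, 9 rose and 0 fell, with a median log2 change of 0.45, and Cst7 (5.51 ± 0.36, SE), Itgax (3.14 ± 0.27), Clec7a (2.56 ± 0.20), Trem2 (1.37 ± 0.13) and Tyrobp led by adjusted p. Apoe, at 0.26 ± 0.14, and Spp1, at -0.15 ± 0.24, did not pass. Called genes of the homeostatic and of the plaque-associated list were thus all higher in APP/PS1. So were 105 of the 110 genes called in this comparison over all tested genes.

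Markers of other cells that the preparation could hold were compared over both peptides. Perivascular macrophage genes, which mark the macrophages that normally sit on brain vessels, gave 0 of 8 called, with a median log2 change of 0.02 and a summed level of 107 to 221 CPM in WT and 116 to 218 CPM in APP/PS1. Monocyte genes gave 0 of 4 tested (6 listed), neutrophil genes 0 of 4 (6 listed), lymphocyte genes 0 of 1 (5 listed) and platelet genes 0 of 2 (4 listed). Over all libraries the listed neutrophil genes summed to a median of 1.52 CPM and the lymphocyte genes to 1.47 CPM, so these lists could hardly show a change. Endothelial (0 of 6), pericyte (0 of 6), smooth muscle (0 of 4), neuron (0 of 6) and oligodendrocyte genes (0 of 6) did not pass either. The astrocyte list gave 1 of 6, Gfap at 1.20 ± 0.15 (log2, SE; edgeR adjusted p = 0.000125), which marks reactive astrocytes. The choroid plexus list gave 0 of 4, but its summed level ran from 16.5 to 7668 CPM in WT and from 178 to 4469 CPM in APP/PS1. With the mean log2 CPM of the choroid plexus genes as a covariate, an alternative chosen after seeing the data, 5 of 9 homeostatic genes were called, with Selplg added, and with that of the endothelial genes 6 of 9. Over all 18753 genes these fits called 121 and 165, against 110 without a covariate.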

How the data were processed

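RNA sequencing was analysed in 17 libraries of mouse cortical microvessels. Vessels were collected by centrifugation in dextran and libraries were made with a stranded mRNA kit after ribosomal RNA depletion, per the labels' protocols. The authors deposited raw read counts per Ensembl gene for 42687 genes. The submitters' processing notes name cutadapt, STAR, HTSeq, DESeq2, mm10 and GRCh37, without roles, and whether counting used the strand is not given in the sources used here. Of its columns, 20 more could not be matched to a sample and were left aside. Symbols came from GENCODE vM21 for 42250 IDs. No 2 of the libraries held identical values.

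Counts were filtered with filterByExpr, scaled by TMM and tested with the quasi-likelihood F test of edgeR 4.0.16 (R 4.3.3) over 18753 genes, with Benjamini-Hochberg adjustment and a threshold of 0.05. Log2 CPM used a prior count of 2. A model of genotype plus peptide gave the genotype effect over both peptides, and the other comparisons came from a model with a separate mean for every group. All 17 libraries entered each fit, and SEs came from the estimate and its F statistic. The slope was tested in the additive model with the pan-microglia level added. The comparisons within 1 genotype or 1 peptide share libraries with one another. The script was tested on simulated data.

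Alternatives were DESeq2 1.42.0, its size factors in edgeR, no filter, library sizes without the 2 ribosomal RNA-linked genes, covariates, and leaving out each library. Total counts of 7316503 to 17862965 made 3 counts worth 0.174 to 0.390 CPM. The members, the gene lists and the tests were chosen with earlier results of these data known. Genes named outside the 9 were those past the threshold in each list, up to 5 by adjusted p, the 10 most like the members' mean, and overlapping or adjacent genes. Some genes that this rule selects are not named here. Any other listed gene named with its value was chosen after its value was seen.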

Additional observations from a re-analysis of the deposited data

Results flagged for a closer look

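Total counts of WT with control peptide replicate 1 stood apart from the rest of its group, at 17862965 against 9356110 to 11342154 in the other 4 libraries. Its gap to the nearest library was 0.767 of the group's range, above the Dixon 95% critical value of 0.71 for 5 libraries. The same library stood apart in the CPM of Selplg, at 36.2 against 12.9 to 19.0 CPM (0.737 of the range), and of P2ry12, at 23.5 against 14.04 to 16.6 CPM (0.726). On the log2 scale of the same values, none of the 9 homeostatic genes stood apart in any group. These were 3 of 63 groups of values tested, and chance alone gives about 1 in 20. The library was the highest WT library for 6 of the 9 genes, and leaving it out moved the log2 change of Selplg from 0.78 to 0.91 (edgeR adjusted p = 0.00129).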

How the results depend on the processing

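The genotype effect over both peptides called 4 of 9 genes, 0 with the pan-microglia level as covariate, and 2 to 6 without 1 library. It called 2 without WT with inhibitor replicate 5, APP/PS1 with control peptide replicate 2, or APP/PS1 with inhibitor replicate 2 or 5. DESeq2, the fit without a filter and the added endothelial covariate each called 6. Over all genes DESeq2 called 182, and the pan-microglia covariate 612, against 110. With control peptide DESeq2 called 2 genes, with 45 against 10 over all genes, and leaving out 1 library gave 0 to 1. With inhibitor DESeq2 called 2, the endothelial covariate 2 and the pan-microglia covariate 0, with 61, 60 and 299 against 34 over all genes, and leaving out 1 library gave 0 to 1. The slope passed for 1 to 3 genes without 1 library. The pan-microglia covariate turned the genotype sign of P2ry13 (-0.14) and Tmem119 (-0.64) over both peptides, of Tmem119 (-0.66), Gpr34 (-0.12) and Selplg (-0.016) with control peptide, and of P2ry13 (-0.18) and Tmem119 (-0.64) with inhibitor. The cause was not tested.

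Other sign changes were in values that did not pass. The inhibitor change of Fcrls in APP/PS1 was -0.034 with the choroid plexus covariate and -0.24 to 0.48 without 1 library, that of Selplg in WT was -0.35 to 0.16, and the Gpr34 interaction was -0.23 to 0.50. The slope of Sall1 was -0.017 to 0.26 without 1 library, and that of Siglech was -0.0098 to 0.26. Of 648 inhibitor and interaction values under alternatives, 65 had the other sign and 0 passed. A slope on a level taken from fewer genes is not reported here. No paired analysis was possible because the labels give no replicate numbers. Where 1 APP/PS1 library with control peptide was left out, the lone one was assumed to vary like the other groups. The 2 libraries of that group, and counts as low as 38 in a library, limit the precision.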
